A study of Mus musculus with 12 samples.

Results

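The 10 genes described here are Trp53, which encodes the transcription factor p53, and 9 of its targets, namely Mdm2, Mdm4, Ppm1d, Ccng1, Cdkn1a, Btg2, Gtse1, Trp53inp1 and Zmat3. Most of the 9 hold p53 in check or slow the cell cycle. The 10 genes were chosen by name as p53 feedback and growth arrest genes, with earlier results of these data known. Counts among them are therefore descriptions beside the shares of all genes. All 10 were found among the 24343 genes with a unique name in the deposited tables. The cells were HT22, which descend from mouse hippocampal cells immortalized with SV40 large T antigen, a viral protein that binds p53 and whose activity was not examined here. Their RNA was sequenced. HT22 is 1 line, and each group held 3 biological replicates. The siControl group received a control siRNA and no chelator. The siNCOA4 group received an siRNA against Ncoa4 and no chelator. The siControl+DFO and siNCOA4+DFO groups received the same siRNAs and DFO, the iron chelator desferrioxamine, at 100 µM for 24 h. Liposomes carried the siRNA into the cells in all 4 groups. NCOA4 is the receptor that delivers the iron store ferritin to autophagy, so the groups lacked chelation and NCOA4 knockdown, had either alone, or had both. The comparison of main interest was the response to DFO in siControl and in siNCOA4 cells.

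In unstressed cells, p53 is kept low because the ubiquitin ligase MDM2 marks it for degradation and the related protein MDM4 blocks its activation domain. When p53 is stabilized it switches on genes that stop the cell cycle, repair DNA or promote cell death, and it also switches on its own inhibitors. MDM2, the phosphatase WIP1 (Ppm1d) and cyclin G1 (Ccng1) are such feedback products. Growth arrest runs mainly through p21 (Cdkn1a), an inhibitor of cyclin-dependent kinases, and BTG2 is a second antiproliferative product. GTSE1 is a microtubule-associated protein of the S and G2 phases that moves p53 out of the nucleus. TP53INP1 promotes p53 activity, and ZMAT3 is a zinc finger protein that binds RNA.

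The values are FPKM, fragments scaled to transcript length and to the mapped fragments of the library, so levels may be compared between genes per length. Depth was not given as counts. The size of the smallest FPKM steps gave relative depths from 0.928 to 1.41 of that of siControl replicate 1, with siNCOA4+DFO replicate 3 the shallowest. That library also stood apart within its group, since its correlations with replicates 1 and 2 were 0.926 and 0.934 against at least 0.947 for every other pair of replicates, and it held the lowest value of its group for 9 of the 10 genes. The ratios of the increments are therefore given with and without that library. So is the outcome of each passed test of the 10 genes whose compared groups held it. Most tests that did not pass are given with all libraries alone, as are counts over gene lists. Ncoa4 was at 6.46, 6.19 and 6.02 FPKM in siControl cells and at 0.770, 0.952 and 0.891 in siNCOA4 cells. Under DFO it was at 8.70, 8.31 and 7.52 with control siRNA and at 0.850, 1.29 and 1.57 with Ncoa4 siRNA, so the siRNA groups did not overlap in either state. Of 10 neuron markers, Tubb3 alone passed the filter on low values (highest value 13.6 FPKM), while Map2, Rbfox3, Snap25, Nefl, Nefm and Dcx were listed at 0 in at least 10 of 12 libraries. All 6 fibroblast or mesenchymal markers passed it, and their summed level was 3119 to 3544 FPKM in siControl, 2311 to 2509 in siNCOA4, 1854 to 1934 in siControl+DFO and 1641 to 1832 in siNCOA4+DFO cells. The largest single part of that sum was Vim (mean 1600 FPKM in siControl and 1412 in siControl+DFO cells), while Col1a1 went from 383 to 94.2, Col3a1 from 289 to 57.1 and Pdgfrb from 25.7 to 3.07. The 4 astrocyte markers, 2 of which passed the filter, summed to 36.4 to 46.0 FPKM in siControl, 22.5 to 26.7 in siNCOA4, 3.18 to 5.42 in siControl+DFO and 6.95 to 15.1 in siNCOA4+DFO cells, mostly as Slc1a3, and Gfap reached at most 0.685 FPKM in any library and Aqp4 0.0596. The part of these shifts in the results was not tested, and in these bulk samples fewer cells of a type and less RNA per cell cannot be told apart.

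The promoter sequences show where letters of the p53 recognition motif lie at the starts of these genes. RefSeq windows on GRCm38.p6, from 250 bases before to 50 after a transcript start, were found for 8 of the 10 genes, in 11 windows. The 10-letter p53 half-site, searched as its consensus, which reads the same on both strands, occurred in 6 of the 11 windows and in 8.36% of the 32851 windows of all genes. The capitals mark the half-site in each stretch, which is printed 5′ to 3′ on the strand of the gene. In Cdkn1a there were 2 exact matches to the half-site, 73 and 51 bases before the start of the upstream transcript and 12 bases apart. Of all windows, 24 (0.0731%) held 2 such matches with a spacer of at most 13 bases. Matches with a differing letter were not searched. The 10 letters directly after GAACATGTCT in the Cdkn1a stretch depart from the consensus at their first letter alone, and they were not counted. The other half-sites began 186 bases before the start in Mdm2, 185 in Ccng1, 75 in Trp53 and 132 in Ppm1d, and at position 10 after the second start in Gtse1. The stretches are chr17:29090866-29090977 for Cdkn1a, chr11:69580244-69580333 for Trp53 and chr11:85311082-85311171 for Ppm1d on the plus strand. They are chr10:117710895-117710984 for Mdm2 and chr11:40755422-40755511 for Ccng1 on the minus strand, and chr15:85859945-85859974 for Gtse1 on the plus strand. The windows of Mdm4 and Btg2 and of the second Cdkn1a start, 2790 bases downstream, did not hold these letters. A match describes letters in a window and is not a measured binding site.
Cdkn1a: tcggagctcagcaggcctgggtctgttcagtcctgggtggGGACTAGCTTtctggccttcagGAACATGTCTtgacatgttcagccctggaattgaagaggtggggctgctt
Mdm2: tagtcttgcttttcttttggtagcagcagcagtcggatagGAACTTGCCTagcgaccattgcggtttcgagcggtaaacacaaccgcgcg
Ccng1: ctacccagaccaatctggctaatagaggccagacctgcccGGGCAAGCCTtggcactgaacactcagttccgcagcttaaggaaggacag
Trp53: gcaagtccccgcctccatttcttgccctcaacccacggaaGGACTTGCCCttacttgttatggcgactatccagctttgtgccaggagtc
Ppm1d: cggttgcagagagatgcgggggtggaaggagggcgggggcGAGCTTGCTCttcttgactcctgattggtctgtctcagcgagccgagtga
Gtse1: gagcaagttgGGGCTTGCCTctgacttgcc

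The positions of the genes are given on GRCm38. Trp53 (chr11:69580348-69591873), Ppm1d (chr11:85311254-85347071) and Ccng1 (chr11:40748552-40755309) are on chromosome 11, and Mdm4 (chr1:132986105-133030587) and Btg2 (chr1:134074865-134079155) are on chromosome 1. Mdm2 (chr10:117688875-117710758), Gtse1 (chr15:85859691-85876573), Cdkn1a (chr17:29090979-29100722), Zmat3 (chr3:32334792-32365665) and Trp53inp1 (chr4:11156441-11174379) are the others. Of all 75-base stretches of the annotated transcripts, 7.05% of those in Cdkn1a, 3.74% in Mdm4 and 1.09% in Trp53 also occurred in transcripts of another gene, which for Mdm4 and Trp53 was their pseudogene. Cdkn1a also overlaps a gene on the opposite strand, and the strand setting of the counting is not given in the sources used here. Smaller shares were found for Mdm2 (0.535%) and Zmat3 (0.13%), and none for the other genes. Values of the genes with shared stretches carry that uncertainty.

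DFO raised all 10 genes in siControl cells, from 1.68-fold for Trp53 to 88.6-fold for Mdm2. Across all genes tested, 53.4% passed the same threshold and 27.7% did so upward, so the share of the 10 genes that rose (10 of 10) stood beside a broad change of the transcriptome. The median log2 fold change was 2.58 for the 10 genes and -0.01 for the 11924 genes tested. A fold change above 2 together with the test was reached by 8 of the 10, against 11.1% of all genes upward, and missed by Trp53 and Mdm4. None of the 10 genes overlapped between siControl+DFO and siControl libraries, and 31.1% of all genes likewise had every treated library above every control library.

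**Figure D1:**
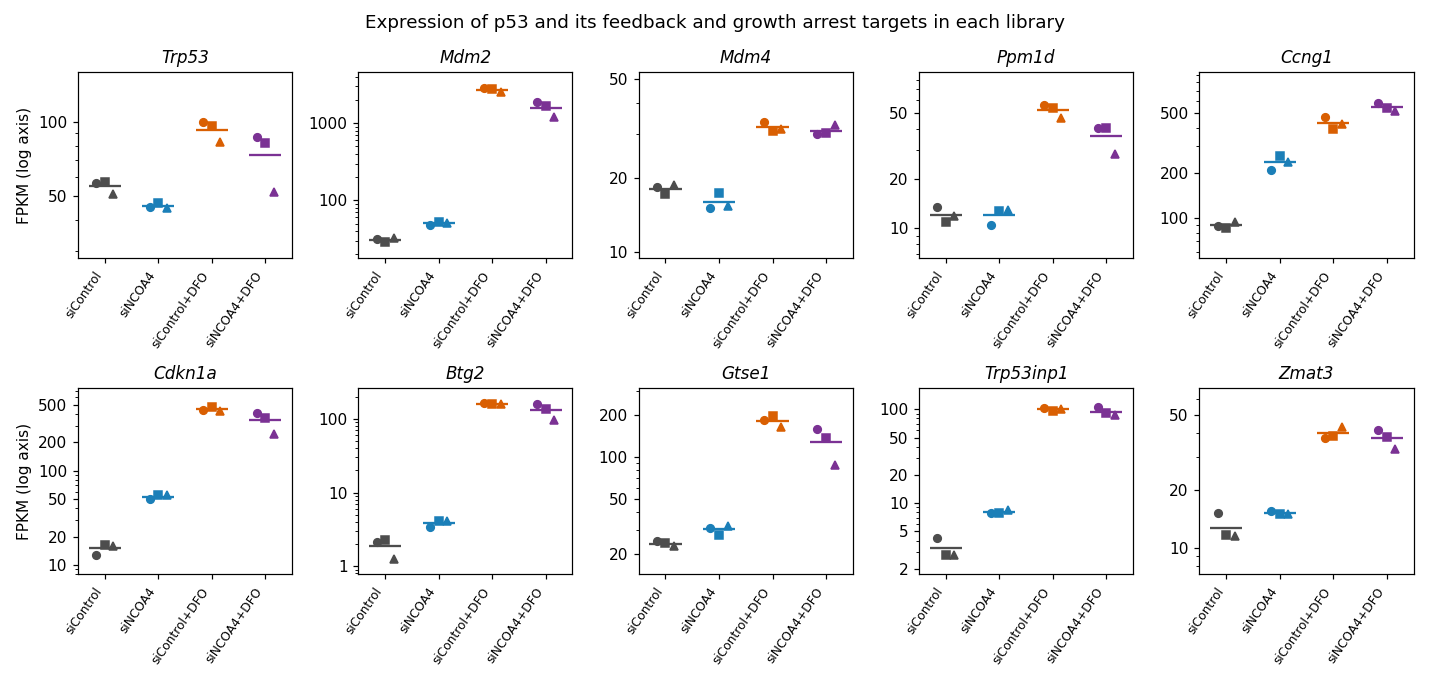
FPKM of each gene (log axis) in the 12 libraries, by group, with circles, squares and triangles for replicates 1, 2 and 3 and a line at the group mean. The DFO groups sit above the groups without DFO for all 10 genes, and siNCOA4+DFO replicate 3 is the lowest library of its group for every gene other than Mdm4.

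The feedback inhibitor Mdm2 had the highest level of the 10 genes under DFO. In siControl cells its estimated fold rise was also the largest, though its 95% confidence interval overlapped that of Btg2. Mdm2 was at 31.1, 28.4 and 32.5 FPKM in siControl libraries and at 2895, 2754 and 2528 in siControl+DFO libraries. Its log2 fold change was 6.47 ± 0.14 (SE, adjusted p = 3.2e-11 by limma with Benjamini-Hochberg adjustment), or 88.6-fold with a 95% confidence interval from 71.8 to 109. It ranked 9 among 11924 genes by the size of its rise. Mdm4, the MDM2-related inhibitor, went from 18.3, 17.1 and 18.7 to 33.4, 30.9 and 31.5 FPKM (log2 0.82 ± 0.08, adjusted p = 3.84e-06). This was a rise of less than 2-fold, in contrast to that of Mdm2. Ppm1d, whose product removes activating phosphates from p53, went from 13.4, 10.9 and 11.9 to 55.8, 53.9 and 46.9 FPKM (log2 2.11 ± 0.15). Ccng1, whose product directs a phosphatase to MDM2, went from 88.7, 86.6 and 94.0 to 469, 389 and 422 FPKM (log2 2.24 ± 0.10). Ccng1 had the highest level of the 10 genes without DFO.

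The growth arrest genes Cdkn1a and Btg2 rose from low starting levels. Cdkn1a was at 12.7, 16.2 and 16.1 FPKM in siControl libraries and at 435, 467 and 433 in siControl+DFO libraries. This was 29.6-fold (95% confidence interval 23.4 to 37.4, log2 4.89 ± 0.16, adjusted p = 6.53e-10). Btg2 was at 2.11, 2.30 and 1.24 FPKM without DFO and at 164, 160 and 161 with it, or 84.0-fold (61.0 to 115.6, log2 6.39 ± 0.21, adjusted p = 9.81e-10). The treated Btg2 values had an SD of 1.94 FPKM around a mean of 161 (n = 3), and the untreated ones an SD of 0.570 around a mean of 1.89. Gtse1 was at 24.8, 23.8 and 22.8 FPKM without DFO and at 184, 196 and 164 with it (log2 2.92 ± 0.17, adjusted p = 4.83e-08).

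The remaining genes promote p53 activity, bind RNA or encode p53 itself. Trp53inp1 went from 4.30, 2.78 and 2.80 to 103, 95.3 and 101 FPKM (log2 4.91 ± 0.14, adjusted p = 4.18e-10). Zmat3 went from 15.1, 11.6 and 11.5 to 37.8, 38.5 and 43.0 FPKM (log2 1.64 ± 0.12, adjusted p = 2.67e-07). Trp53 itself was at 56.3, 57.2 and 51.3 FPKM and rose to 99.3, 96.4 and 82.5 (log2 0.75 ± 0.16, adjusted p = 0.00148), the smallest change among the 10. Transcript levels do not report the amount of p53 protein, which RNA-seq does not measure.

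In siNCOA4 cells DFO also raised all 10 genes, from 1.58-fold for Trp53 to 32.4-fold for Btg2. In this comparison 42.7% of all genes passed the threshold and 23.1% did so upward. The median log2 fold change was 1.80 for the 10 genes and -0.0035 for all genes tested. A fold change above 2 was again passed by 8 genes, with Trp53 and Mdm4 below it, against 7.59% of all genes upward. No gene of the 10 overlapped between the groups, and 27.6% of all genes were separated upward in the same way. Btg2 rose from 3.40, 4.05 and 4.10 to 158, 137 and 95.8 FPKM (log2 5.02 ± 0.21, adjusted p = 2.33e-08). Mdm2 rose from 47.7, 52.6 and 51.0 to 1912, 1676 and 1202 FPKM (log2 4.96 ± 0.14, adjusted p = 7.79e-10), which was 31.1-fold. In Cdkn1a, levels rose from 49.8, 54.6 and 55.03 to 409, 364 and 247 FPKM (log2 2.64 ± 0.16, adjusted p = 1.65e-07), or 6.25-fold. The third replicate was the lowest of the DFO-treated libraries for each of these 3 genes and still stood above every siNCOA4 library.

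Trp53inp1 rose 11.5-fold in siNCOA4 cells, from 7.88, 7.85 and 8.48 to 105, 90.7 and 86.5 FPKM (log2 3.52 ± 0.14). Gtse1 went from 30.9, 27.6 and 32.1 to 158, 136 and 87.6 FPKM (log2 2.03 ± 0.17). Both showed separate groups, with replicate 3 of the treated group lowest. Ppm1d went from 10.5, 12.8 and 12.98 to 40.9, 40.7 and 28.3 FPKM (log2 1.57 ± 0.15). For Ccng1 the change was from 210.4, 260.4 and 236.2 to 586, 536 and 519 FPKM (log2 1.22 ± 0.10). Ccng1 thus reached a higher level in siNCOA4+DFO cells than in any other group. Zmat3 went from 15.6, 14.9 and 15.0 to 41.3, 38.0 and 33.0 FPKM (log2 1.29 ± 0.12), and Mdm4 went from 15.1, 17.4 and 15.4 to 30.1, 30.2 and 32.6 (log2 0.95 ± 0.08). For Trp53 the change was from 45.1, 46.7 and 44.9 to 86.9, 82.1 and 51.9 FPKM (log2 0.66 ± 0.16, adjusted p = 0.00474). Without siNCOA4+DFO replicate 3 all 10 genes still passed, and the log2 change of Trp53 was 0.89 (adjusted p = 1.55e-05).

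**Figure D2:**
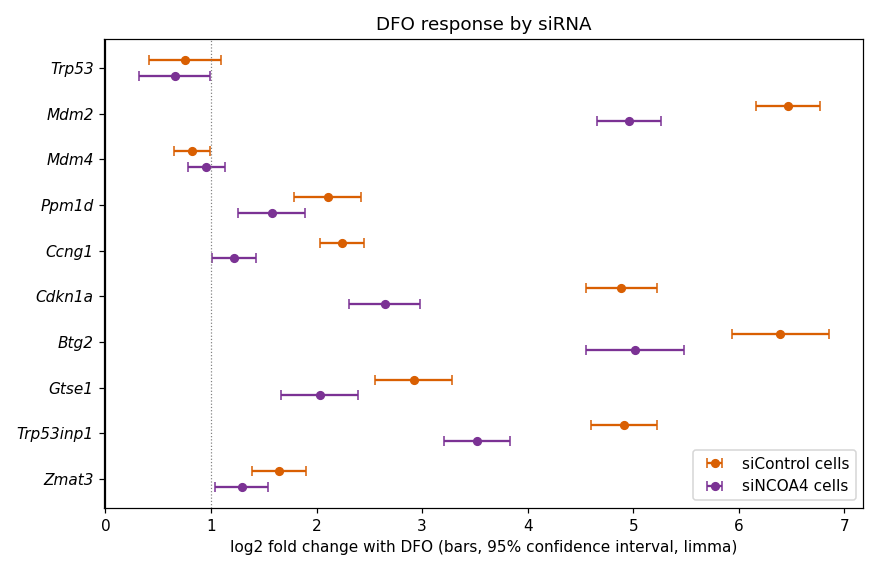
Log2 fold change with DFO of each gene in siControl and siNCOA4 cells, with 95% confidence intervals from limma and a dotted line at a 2-fold change. The intervals of Mdm2, Ccng1, Cdkn1a, Btg2, Trp53inp1 and Gtse1 are apart between the siRNA groups, while those of Trp53 and Mdm4 largely coincide.

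The difference between the responses was then tested as the interaction, the log2 fold change by DFO in siNCOA4 cells minus that in siControl cells. Cdkn1a, Mdm2, Ccng1, Btg2 and Trp53inp1 responded less in siNCOA4 cells, and none of the 10 genes responded more. These 5 of 10 genes stood against 2.1% of all genes with a different response and 1.43% with a lower one. For Cdkn1a the log2 response was lower by 2.24 (difference -2.24 ± 0.22, 95% confidence interval -2.72 to -1.76, adjusted p = 0.000874). The difference was -1.51 ± 0.20 for Mdm2 and -1.03 ± 0.14 for Ccng1 (both adjusted p = 0.00397). It was -1.39 ± 0.20 for Trp53inp1 (adjusted p = 0.00669) and -1.38 ± 0.30 for Btg2 (adjusted p = 0.0393). The remaining genes did not pass, with differences of -0.89 for Gtse1 (adjusted p = 0.0749), -0.53 for Ppm1d (0.197), -0.35 for Zmat3 (0.278), -0.10 for Trp53 (0.862) and 0.13 for Mdm4 (0.585). The 95% confidence intervals were -0.11 to 0.38 for Mdm4 and -0.58 to 0.38 for Trp53. At an unadjusted p below 0.05, 7 of the 10 genes differed, as did 2167 of the 11924 genes tested. The median difference was -0.96 over the 10 genes and -0.01 over all genes.

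Without siNCOA4+DFO replicate 3, the differences were -2.03 for Cdkn1a (adjusted p = 0.000294), -1.32 for Mdm2 (0.00115), -1.33 for Trp53inp1 (0.0172) and -0.99 for Ccng1 (0.00919). Btg2 no longer passed without that library (-1.17, adjusted p = 0.0632). It also missed the threshold when any siNCOA4 or siControl+DFO library or siNCOA4+DFO replicate 2 was left out, with adjusted p-values up to 0.0942. Gtse1 passed when siNCOA4+DFO replicate 1 (-1.07, adjusted p = 0.0243) or replicate 3 (-0.64, adjusted p = 0.0432) was left out. The Cdkn1a difference lay between -2.39 and -2.03 over all 12 left-out libraries.

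A log2 difference depends on the level from which each response starts, so the increments were also computed in FPKM (mean with DFO minus mean without, ± SE from the replicates). Ccng1 gained 336.7 ± 23.5 FPKM in siControl and 311.3 ± 24.8 in siNCOA4 cells, a ratio of 0.924, although its log2 response was lower. Trp53inp1 gained 96.7 ± 2.5 and 86.1 ± 5.66 FPKM, a ratio of 0.890. Mdm2 gained 2695 ± 107 FPKM in siControl and 1546 ± 209 in siNCOA4 cells, a ratio of 0.574. Cdkn1a gained 430.0 ± 11.2 and 286.9 ± 48.3 FPKM, a ratio of 0.667. Btg2 gained 159.5 ± 1.17 and 126.3 ± 18.2 FPKM, a ratio of 0.792. The ratio was thus below 1 for all 5 genes with a lower log2 response, and siNCOA4 cells started from a higher level for each of them. For Ccng1 the ratio was 0.924 ± 0.098 (SE), within 1 SE of 1, and for Trp53inp1 it was 0.890 ± 0.063. For Btg2 it was 0.792 ± 0.114, for Cdkn1a 0.667 ± 0.114 and for Mdm2 0.574 ± 0.081. The ratio was 0.611 ± 0.114 for Ppm1d, 0.616 ± 0.137 for Gtse1 and 0.823 ± 0.108 for Zmat3. For Trp53 (0.743 ± 0.310) and Mdm4 (1.08 ± 0.10) it was also within 1 SE of 1. Without siNCOA4+DFO replicate 3, an alternative chosen after seeing the data, the ratio was 0.647 for Mdm2, 0.714 for Ppm1d, 0.742 for Gtse1, 0.776 for Cdkn1a, 0.899 for Btg2, 0.904 for Zmat3, 0.929 for Trp53inp1 and 0.966 for Ccng1. For Trp53 it became 1.03, so its direction turned, and for Mdm4 it was 1.02. These ratios are descriptions without a test.

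Knockdown of Ncoa4 was also compared with control siRNA in the absence of DFO. Relative to siControl, 5 of the 10 genes rose in siNCOA4 cells and none fell, while 11.7% of all genes passed the threshold and 4.52% did so upward. They were Cdkn1a (log2 1.82 ± 0.16, adjusted p = 2.45e-05), Ccng1 (1.39 ± 0.10, 7.04e-06), Trp53inp1 (1.30 ± 0.14, 0.000159), Btg2 (1.03 ± 0.21, 0.00856) and Mdm2 (0.72 ± 0.14, 0.00635). In fold terms the rise was 3.54 for Cdkn1a, 2.62 for Ccng1, 2.46 for Trp53inp1, 2.05 for Btg2 and 1.64 for Mdm2, so that 4 of them passed a 2-fold threshold, against 0.805% of all genes upward. These are the genes whose DFO response was lower in siNCOA4 cells, and both comparisons use the siControl and siNCOA4 libraries, so they are not independent of each other. Every siNCOA4 library was above every siControl library for 6 genes (these 5 and Gtse1), and every one was below for Trp53. Of all genes, 14.9% were separated upward and 17.6% downward in the same way. Gtse1 (log2 0.34, adjusted p = 0.223) and Trp53 (-0.27, adjusted p = 0.304) did not pass the test with all libraries. Without siNCOA4+DFO replicate 3, which enters only the shared estimate of the spread, both passed (adjusted p = 0.0286 and 0.0458). Zmat3 (log2 0.26, adjusted p = 0.171) passed without siControl replicate 1 (0.39, adjusted p = 0.0389). Ppm1d (log2 0.0039, adjusted p = 0.995) and Mdm4 (-0.18, adjusted p = 0.182) did not pass.

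With DFO present in both groups, 3 of the genes were lower and 1 was higher after the knockdown. Mdm2 was lower in siNCOA4+DFO than in siControl+DFO libraries (log2 -0.80 ± 0.14, adjusted p = 0.00308), with every siNCOA4+DFO library below every siControl+DFO library. Gtse1 (-0.55 ± 0.17, adjusted p = 0.0432) and Ppm1d (-0.53 ± 0.15, adjusted p = 0.0299) were also lower. Ccng1 was higher (0.36 ± 0.10, adjusted p = 0.0247). Thus 1 gene of the 10 rose and 3 fell, while 16.5% of all genes passed, 6.22% upward and 10.2% downward. No change among the 10 exceeded 2-fold, against 2.09% of all genes. Cdkn1a (-0.42, adjusted p = 0.0854), Btg2 (-0.34, 0.294), Trp53 (-0.36, 0.13), Trp53inp1 (-0.09, 0.706), Zmat3 (-0.09, 0.634) and Mdm4 (-0.04, 0.756) did not pass. Cdkn1a and Btg2 values were nevertheless lower in all 3 siNCOA4+DFO libraries than in any siControl+DFO library, as were those of Mdm2, Ppm1d and Gtse1. Ccng1 was higher in all 3. The share of all genes separated in this way was 20.1% downward and 14.7% upward.

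Apart from Mdm2, each of these calls was lost when any of several single libraries was left out. Without siNCOA4+DFO replicate 3, Mdm2 (-0.60, adjusted p = 0.00325) and Ccng1 (0.40, adjusted p = 0.0365) passed, and Ppm1d (-0.35, adjusted p = 0.0904) and Gtse1 (-0.30, adjusted p = 0.0792) did not. Gtse1 was lost whichever library other than siNCOA4+DFO replicate 1 was left out, with adjusted p-values up to 0.128. Its estimate stayed at -0.55 when a siControl or siNCOA4 library was left out, with adjusted p-values from 0.0505 to 0.0576. Those libraries enter only the shared estimate of the spread. Ppm1d was also lost without siControl+DFO replicate 1 (adjusted p = 0.0948) or 2 (0.0892). Ccng1 was lost without siControl+DFO replicate 2 (adjusted p = 0.0989) or 3 (0.0634) or siNCOA4+DFO replicate 1 (0.0732). Cdkn1a passed without siNCOA4+DFO replicate 1 (-0.57, adjusted p = 0.0279).

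**Figure D3:**
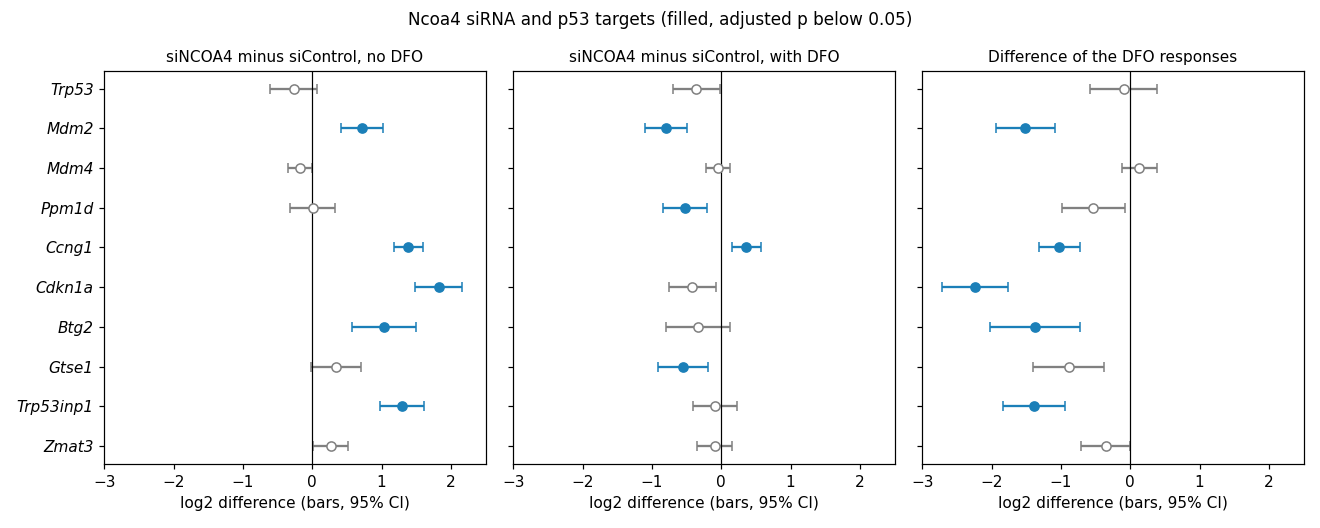
Log2 differences of each gene for siNCOA4 minus siControl without DFO (left) and with DFO (middle), and for the DFO response in siNCOA4 minus that in siControl cells (right), with 95% confidence intervals. Filled points have an adjusted p below 0.05, which 5, 4 and 5 genes reached, and Cdkn1a lies at 1.82 on the left and -2.24 on the right.

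The remaining p53 pathway was described with lists of other targets, regulators and downstream genes. Of 10 tested p53 targets of apoptosis and death receptors, 9 rose with DFO in siControl cells and none fell (median log2 2.36), and 9 rose in siNCOA4 cells (median 1.68). Of all genes tested, 27.7% rose and 25.7% fell in siControl cells, and 23.1% rose and 19.6% fell in siNCOA4 cells. The largest rises in siControl cells were those of the death receptor gene Fas (log2 4.54, adjusted p = 4.83e-08), Pidd1, which encodes a death domain protein (3.66, 3.06e-08), and the receptor gene Eda2r (3.55, 2.51e-10). Of 15 targets of repair, stress and metabolism, 10 rose and 1 fell in either background (median log2 2.11 in siControl and 1.73 in siNCOA4 cells). In siControl cells the largest rises were in Gadd45a, a growth arrest and DNA damage gene (3.94, adjusted p = 3.75e-09), Polk, a translesion DNA polymerase (3.44, 4.78e-09), and Sesn2, a stress-inducible regulator of mTORC1 (3.28, 8.62e-09). Sesn1, related to Sesn2, was the 1 that fell (-1.35 in siControl cells, adjusted p = 1.42e-05). At an unadjusted p below 0.05, the responses differed for 9 of the 10 apoptosis targets and 10 of the 15 repair targets. The same held for 2167 of the 11924 genes tested. The median difference was -0.76 and -0.47, against -0.01 over all genes, and 1 and 4 of the targets had a positive difference. At an adjusted p below 0.05, the response was lower in siNCOA4 cells for 5 genes of these lists, against 1.43% of all genes. These 5 are listed here after their values were seen, because they passed, and Aen and Ddit4 are named for that reason alone. They were Eda2r (difference -1.49, adjusted p = 0.000874), Polk (-1.18, 0.0168), Gadd45a (-1.09, 0.033), Aen (-0.95, 0.042) and Ddit4 (-0.87, 0.0271). Without DFO, 4 of the 10 apoptosis targets and 2 of the 15 repair targets rose in siNCOA4 cells, against 4.52% of all genes. Eda2r again had the largest change of these (log2 1.59).

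The upstream regulators act on the stability or activity of p53. Of 17 tested p53 regulators, 4 rose and 2 fell with DFO in siControl cells and 4 rose and 2 fell in siNCOA4 cells, with a median log2 change of 0.11 in each. The genes were not all the same, since Kat5 passed in siControl cells (adjusted p = 0.0366) and not in siNCOA4 cells (0.198), and Atr passed in siNCOA4 cells (0.00339) and not in siControl cells (0.363). The share called was below that of all genes, of which 53.4% passed in siControl and 42.7% in siNCOA4 cells. The kinase genes Atm (log2 0.85, adjusted p = 1.81e-05) and Chek2 (0.75, 0.00807), which relay DNA damage to p53, rose in siControl cells. Trp63, a relative of Trp53, was at 0.816 to 0.914 FPKM in siControl libraries and was listed at 0 in all 3 siControl+DFO libraries. None of the regulators differed between the responses at an adjusted p below 0.05, and 3 did so at an unadjusted p below 0.05. Of all genes tested, 2.1% and 2167 of 11924 did so, and a list this small could hold none at the adjusted threshold.

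Cell division genes, which p53 and p21 are known to repress through the DREAM complex, fell more often than they rose. Of 20 genes of G2 and mitosis, 13 fell and 3 rose with DFO in siControl cells (median log2 -0.44), and 15 fell and 3 rose in siNCOA4 cells (median -0.49). Of all genes, 25.7% fell in siControl and 19.6% in siNCOA4 cells. In siControl cells the mitotic kinase gene Plk1 fell by 2.23 on the log2 scale (adjusted p = 5.07e-07), the cyclin gene Ccnb2 by 1.57 (0.000197) and the checkpoint gene Bub1b by 1.46 (1.03e-07). Bub1, Mybl2 and Cenpe, named here after their values were seen, rose by 0.61, 0.55 and 0.42. Gtse1, which is named for its expression in G2 and S phase, rose while most of this list fell. Of 3 tested inhibitors of cyclin-dependent kinases other than Cdkn1a, Cdkn2c (log2 -1.17, adjusted p = 9.06e-07) and Cdkn2d (-1.05, 0.00028) fell in siControl cells, so the rise of Cdkn1a was not shared by them. None of the G2 and mitosis genes or these inhibitors passed the test of a different response, and 4 and 1 of them had an unadjusted p below 0.05. The shares of all genes were 2.1% and 2167 of 11924, so lists this small could hold none that passed.

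Targets of hypoxia-inducible factor, a factor that iron chelators are known to stabilize, rose beside the p53 targets. Of 12 tested, 11 rose in siControl cells (median log2 1.83) and 10 rose in siNCOA4 cells (median 1.46). The share of all genes that rose was 27.7% in siControl and 23.1% in siNCOA4 cells. Ndrg1 (log2 3.16, adjusted p = 1.24e-08), the growth factor gene Vegfa (2.11, 7e-09) and the glucose transporter gene Slc2a1 (2.07, 6.37e-08) had the largest changes in siControl cells. None of the 12 passed the test of a different response and 3 had an unadjusted p below 0.05. Of all genes, 2.1% passed that test and 2167 of 11924 had an unadjusted p below 0.05, so a list this small could hold none. Without DFO, 5 of these targets were lower and none were higher in siNCOA4 cells. Of the 11924 genes tested, 860 were lower and 539 higher in that comparison. Among the 10 p53 genes, 5 were higher.

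**Figure D4:**
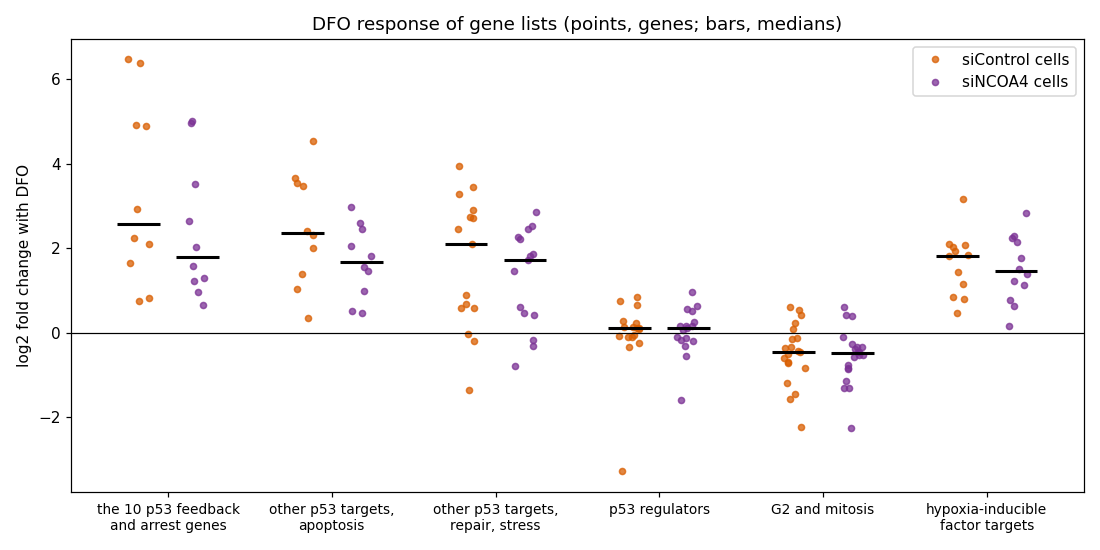
Log2 fold change with DFO of the 10 genes and of 5 lists of related genes, in siControl and siNCOA4 cells, with 1 point for each gene tested and a bar at the median. The medians of the 10 genes are 2.58 and 1.80, those of the p53 regulators are both 0.11, and those of the G2 and mitosis genes are -0.44 and -0.49.

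The genes whose levels followed Cdkn1a most closely over the 12 libraries, by Pearson correlation of log2(FPKM + 0.1), were Rnf11 (r = 0.996), Ak1 (0.996) and Atg9b (0.993). For Mdm2 they were Ifit1 (0.998), Zfp367 (0.998) and Pvr (0.998). These correlations are descriptions over 4 groups that share the DFO and siRNA contrasts, and they carry no test.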

How the data were processed

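RNA-seq of total RNA from 12 HT22 cultures was analysed, 3 biological replicates in each of 4 groups taken from the sample labels. Libraries were made with a stranded low-input total RNA kit. The authors deposited FPKM per gene, 1 table for each library. The submitters' processing notes name Trimmomatic 0.33, FastQC, HISAT2 2.1.0, featureCounts, edgeR and mm10, with no role for each, and the annotation and strand setting are not given in the sources used here. Each table held 24347 entries, of which the 4 that shared a name were left out. In 27 entries the name had been turned into a date. Total counts are not part of FPKM. Relative depth was read from the smallest FPKM steps of low genes (tolerance 0.02, natural log).

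Of 24343 genes, 11924 reached an FPKM of 0.5 in 3 or more libraries and were tested, the 10 genes among them. Values were taken as log2(FPKM + 0.1), which understates changes of low genes, and fitted with a means model over all libraries in limma 3.58.1 (R 4.3.3) with a mean-variance trend. Two-sided p-values were adjusted over all genes tested (Benjamini-Hochberg) within each of 5 comparisons. A gene was said to rise or fall at an adjusted p below 0.05. The study also required a fold change above 2. FPKM is not a count, so edgeR was not run here. An exact test of 3 libraries against 3 could not give a two-sided p under 0.1 and was not used. The fit was tested on simulated data with 200 changed genes in each comparison. It recovered 83.5% of them for the difference of the responses and up to 92% for siNCOA4 without DFO. False calls ran from 4 of 179 for DFO in siNCOA4 cells to 17 of 201 for siNCOA4 without DFO. The noise was drawn from the fit's own spread, so departures of FPKM from the model were not tested. Python 3.11.15 with numpy 2.4.6, pandas 2.3.3 and matplotlib 3.10.9 was used otherwise.

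The 10 genes and the lists of related genes and markers were chosen with earlier results of these data known. Named genes are the 10, Ncoa4, up to 3 genes of each list with the largest change by DFO in siControl cells among those that passed, and the 3 genes most correlated with Cdkn1a and with Mdm2. Cell type markers are named from their fixed lists, and Sesn1, Aen, Ddit4, Bub1, Mybl2, Cenpe, Kat5, Atr and Trp53cor1 were named after their values were seen. One list gene, Cop1, was found under its older symbol Rfwd2. Alternatives were pseudocounts of 1 and 0.01, no filter, a minimum of 2 FPKM, scaling by median of ratios or by quantiles, a block for the replicate number, fits without the groups not compared, robust moderation, moderation with no trend, and each library left out in turn.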

Additional observations from a re-analysis of the deposited data

Results flagged for a closer look

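The response to DFO differed between siNCOA4 and siControl cells for 5 of the 10 genes by the test of the difference itself. The log2 response was lower in siNCOA4 cells by a difference of -2.24 for Cdkn1a (adjusted p = 0.000874), -1.51 for Mdm2 (0.00397), -1.03 for Ccng1 (0.00397), -1.38 for Btg2 (0.0393) and -1.39 for Trp53inp1 (0.00669), by limma with Benjamini-Hochberg adjustment. Groups of 3 libraries are too small for a test of single outlying libraries.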

How the results depend on the processing

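All 10 genes kept their rise with DFO, in direction and past the threshold, under each alternative and each left-out library, in siControl and in siNCOA4 cells, except that 8 in each passed when a fold change above 2 was also required. The number with a different response was 4 to 5 under the alternatives and 4 to 6 over left-out libraries. Btg2 was the gene lost, with no filter (adjusted p = 0.0665), quantile scaling (-1.13, 0.0716) and moderation without a trend (0.0778). The difference for Cdkn1a was -2.25 to -2.05. The compared groups of that test are all 4, so it had no separate fit. Without DFO, siNCOA4 changed 5 to 6 genes under the alternatives and 5 to 7 over left-out libraries, and 4 when a fold change above 2 was also required, without Mdm2. Under DFO the count of 4 was 2 with quantile scaling, 2 without a trend, 1 with the compared groups alone, 0 with a fold change above 2 and 1 to 4 over left-out libraries. Signs turned for values that had not passed the test: Trp53 in the difference of responses (0.0016 with quantile scaling, and -0.23 to 0.14 over left-out libraries), Ppm1d without DFO (-0.0668 to 0.0997 over left-out libraries) and, under DFO with quantile scaling, Mdm4 (0.0696), Trp53inp1 (0.0773) and Zmat3 (0.0206). The cause was not tested.

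Same-numbered libraries of different groups correlated between -0.127 and 0.116 in their deviations from the group means. Differently numbered ones correlated between -0.175 and 0.162, so no pairing by number was seen. The labels do not say whether same-numbered cultures were handled together. With the replicate number as a block, 10, 10, 5, 5 and 4 genes passed, as without the block. Depth varied 1.52-fold between libraries, and its effect on low values such as those of Btg2 without DFO was not tested.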

Other observations

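Trp53cor1, the long noncoding RNA gene next to Cdkn1a known as lincRNA-p21, was examined after the values of Cdkn1a were seen. It was at 0.439, 0.0875 and 0.375 FPKM in siControl libraries and at 3.21, 2.11 and 2.15 in siControl+DFO libraries (log2 2.81, adjusted p = 0.00011). In siNCOA4 libraries it was at 0.504, 0.957 and 0.701 FPKM, and with DFO it was at 2.18, 3.75 and 2.84 (log2 1.89, adjusted p = 0.00282). The difference of the responses was -0.92 and did not pass (adjusted p = 0.441).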
